A study of Mus musculus with 12 samples.

Results

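Homeostatic microglia signature genes are transcripts that mark the surveying state of microglia, the resident macrophages of the brain. The members were the 9 genes *P2ry12*, *P2ry13*, *Tmem119*, *Cx3cr1*, *Siglech*, *Gpr34*, *Olfml3*, *Fcrls* and *Selplg*, each found as the row of the expression table whose mouse Ensembl identifier carries that symbol. All 9 were among the 48623 genes of the table, with 1 identifier each, and 8 of them passed a limit on expression (a mean log2(TPM + 1) above 1.5 over all libraries) that left 11204 genes for testing. *Siglech* did not pass it.

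The data were 12 RNA-seq libraries of primary microglia in 4 groups of 3. WT cells came from C57BL/6J mice, and KI cells came from mice of that background that carry the *Trem2* R47H point mutation on both alleles. From each of 6 cultures, as told by the number that sample names share, 1 library was made from untreated cells and 1 from cells given IL-4 at 20 ng/ml for 48 h. The WT cultures are named T13, T33 and T43, and the KI cultures T15, T22 and T32. The cells were grown from cortex and hippocampus of newborn mice in mixed glial culture and freed from the astrocyte layer by mild trypsin. The study describes the WT mice of this comparison as littermates of the KI mice, and by its methods the pups of such litters were cultured one by one and genotyped afterwards. The labels do not give the litter of a culture. TREM2 is a lipid-sensing receptor of microglia, and IL-4 is a cytokine that turns macrophages towards an anti-inflammatory state.

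In the brain, the homeostatic state is maintained by TGF-beta and by CSF1R signaling, with transcription factors such as PU.1, MEF2C and SALL1 acting on the microglial genome. Many of its markers are surface receptors through which microglia sense nucleotides, lipids and neuronal ligands, and their transcripts are known to fall when microglia are taken from the brain into culture or become activated. Loss of these transcripts alongside a rise of a lipid-handling program dependent on TREM2 is a well-known feature of microglia around amyloid plaques.

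The position of each member is given on GRCm38. *P2ry12* (chr3:59216272-59262871) and *P2ry13* (chr3:59207892-59210882) are neighbours on the minus strand with 5389 bases between them, and both lie within *Med12l* on the opposite strand. *Tmem119* (chr5:113793729-113800516) and *Selplg* (chr5:113818536-113832644) are also neighbours on the minus strand, with 18019 bases between them. *Fcrls* (chr3:87250758-87263738), *Olfml3* (chr3:103722222-103738001) and *Cx3cr1* (chr9:119901616-120069879) are on the minus strand. *Siglech* (chr7:55768178-55778925) and *Gpr34* (chrX:13632089-13640858) are on the plus strand, the latter within *Cask* on the opposite strand.

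The library kit does not mark strand, so reads of overlapping genes can be told apart by sequence alone. *Med12l* was at 0.199 TPM on average and shared 9 of the 2546 exon bases of *P2ry12* and 0 of those of *P2ry13*. *Cask* was at 17.4 TPM and shared 0 exon bases with *Gpr34*. The span of *Cx3cr1* takes in 9 other annotated genes, of which only *Gm33858*, at 3.2 TPM on average, shared exon bases with it, 78 of 4505.

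Promoter sequences were taken from RefSeq (GRCm38.p6), where 6 of the 9 members had an entry (*P2ry12*, *P2ry13*, *Fcrls*, *Olfml3*, *Siglech* and *Cx3cr1*). The 250 bases before the start site were shown for *P2ry13*, which holds a match to the core of PU.1, the master regulator of the myeloid lineage, and for *Olfml3*, the member that followed the average of the group most closely and holds no match. Capitals mark the match, which began 48 bases before the start site. Both windows lie outside every annotated exon and are written 5′ to 3′ on the minus strand, at chr3:59210883-59211132 for *P2ry13* and chr3:103738002-103738251 for *Olfml3*.
P2ry13: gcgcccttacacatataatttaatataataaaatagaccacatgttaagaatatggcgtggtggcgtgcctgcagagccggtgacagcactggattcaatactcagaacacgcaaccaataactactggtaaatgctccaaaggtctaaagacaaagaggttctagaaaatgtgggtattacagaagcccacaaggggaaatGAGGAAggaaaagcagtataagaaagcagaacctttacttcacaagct
Olfml3: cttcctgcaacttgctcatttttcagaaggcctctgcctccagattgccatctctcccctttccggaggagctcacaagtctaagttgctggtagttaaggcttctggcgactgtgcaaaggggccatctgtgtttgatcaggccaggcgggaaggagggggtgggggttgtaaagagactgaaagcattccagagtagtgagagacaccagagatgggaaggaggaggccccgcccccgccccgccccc

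Each motif was searched on both strands. The PU.1 core GAGGAA was in 2 of the 6 windows (*P2ry13* and *Fcrls*) and in 23.3% of all 32851 RefSeq promoter windows of the same length. A longer PU.1 core, AGGAAGT, whose first letters overlap the end of the shorter core, was in 2 windows (*P2ry12* and *Fcrls*) and in 7.69% of all. The pattern CTANNNNTAG has the ends of a MEF2 site with any letters between them. It was in the *Cx3cr1* window and in 3.2% of all. A MEF2 site has only A or T between these ends, and the *Cx3cr1* match has AAGA, so it is not a MEF2 site. A spaced palindrome of the kind bound by STAT6, the factor that IL-4 activates, TTCNNNNGAA, was in 0 of the 6 and in 5.85% of all. These matches are a description of the letters in the windows. The *Fcrls* window in part and the *Cx3cr1* window in full lie in annotated exons of those genes, and the *P2ry12* window lies in exons of *Med12l*.

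The altered gene was checked first. Without IL-4, *Trem2* measured 1328, 1886 and 1538 TPM in WT and 325, 770 and 602 TPM in KI. After IL-4 it measured 1190, 1550 and 1312 TPM against 428, 598 and 634 TPM. The genotypes did not overlap, and the average difference was −1.43 on the log2(TPM + 1) scale (SE 0.19, limma adjusted p = 0.00763). TPM values per gene do not show the mutated base itself. Each library sums to 1000000 TPM by construction, so the reads behind a value are unknown, and between 20750 and 23945 genes were above 0 per library.

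The libraries had the pan-microglial genes in abundance, but their level differed by genotype. The mean log2(TPM + 1) of 20 such genes, among them *Aif1*, *Itgam* and the C1q genes, was 10.31 to 10.48 in WT libraries and 9.27 to 10.02 in KI libraries, an average difference of −0.61. Marker lists of astrocytes and of mural cells and fibroblasts ran the other way. The 10 oligodendrocyte lineage genes summed to 69.5 to 151 TPM in WT and 143 to 547 TPM in KI libraries. The 6 endothelial genes summed to 21.6 to 29.1 TPM in untreated WT and 19.4 to 23.8 TPM in untreated KI libraries. Most of that sum was *Flt1*, at 17.8 to 25 TPM and 15.3 to 21.4 TPM, so it says little about endothelial cells. The summed level of 12 astrocyte genes was 168 to 704 TPM in WT and 234 to 4858 TPM in KI libraries, highest in both libraries of KI culture T15, where *Gfap* was at 3013 and 2157 TPM. The 11 mural and fibroblast genes summed to 186 to 708 TPM in WT and 860 to 1630 TPM in KI libraries. Of the markers of infiltrating or border macrophages, *Lyve1* was listed at 0 in every library and *Ccr2*, *Cd163* and *Ly6c2* were at or near 0, whereas *Ms4a7* was at 481 to 1773 TPM, *Pf4* at 37.2 to 349 TPM, *Clec12a* at 22.5 to 170 TPM and *F13a1* at 0 to 11.9 TPM. The 8 genes of this list summed to 1071 to 1884 TPM in WT and 621 to 2108 TPM in KI libraries. By staining, the study saw no substantial change in the share of microglia between WT and homozygous KI cultures, untreated or with IL-4. The labels do not link those counts to the libraries used here. In bulk RNA, fewer microglia and less RNA of a gene per microglia cannot be told apart. The part of these cell-type differences in the results on genotype below was not tested. For the 8 tested members, the genotype difference is therefore also given relative to the 20 pan-microglial genes. Of these 20 genes, 5 were themselves called lower in KI. The study also reports less *C1qa*, *Cd68*, *Csf1r* and *Spi1* after acute *Trem2* knockdown. This scaling thus removes a shared change per cell as well as a change in microglia content, and it cannot tell them apart.

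The members covered a wide range of levels (TPM, a unit per transcript length that allows genes to be compared). In untreated WT microglia the order of mean levels was *Fcrls* at 811 ± 67.3 TPM (SD, n = 3), *Cx3cr1* at 527 ± 177, *Olfml3* at 240 ± 41.2, *Selplg* at 166 ± 43.9, *Gpr34* at 112 ± 14.1, *Tmem119* at 71.9 ± 10.6, *P2ry12* at 21.5 ± 2.39, *P2ry13* at 13.9 ± 5.2 and *Siglech* at 2.4 ± 2.82. Of the 8 pairs of neighbours in this order, only *Selplg* and *Gpr34* had overlapping libraries. *Fcrls* was above 99% of the tested genes and *P2ry12*, often used as the defining marker of microglia in the brain, was above 58.4%. *Siglech*, also a defining marker in tissue, was near the bottom.

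The order changed in the other groups. In untreated KI microglia *P2ry13* (19.4 TPM) stood above *P2ry12* (10.3 TPM), but their libraries overlapped. In KI microglia with IL-4 the means of *Olfml3* (151 TPM), *Cx3cr1* (143 TPM) and *Selplg* (133 TPM) lay so close that their neighbouring libraries overlapped, while *Fcrls* remained first in all 4 groups.

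**Figure D1:**
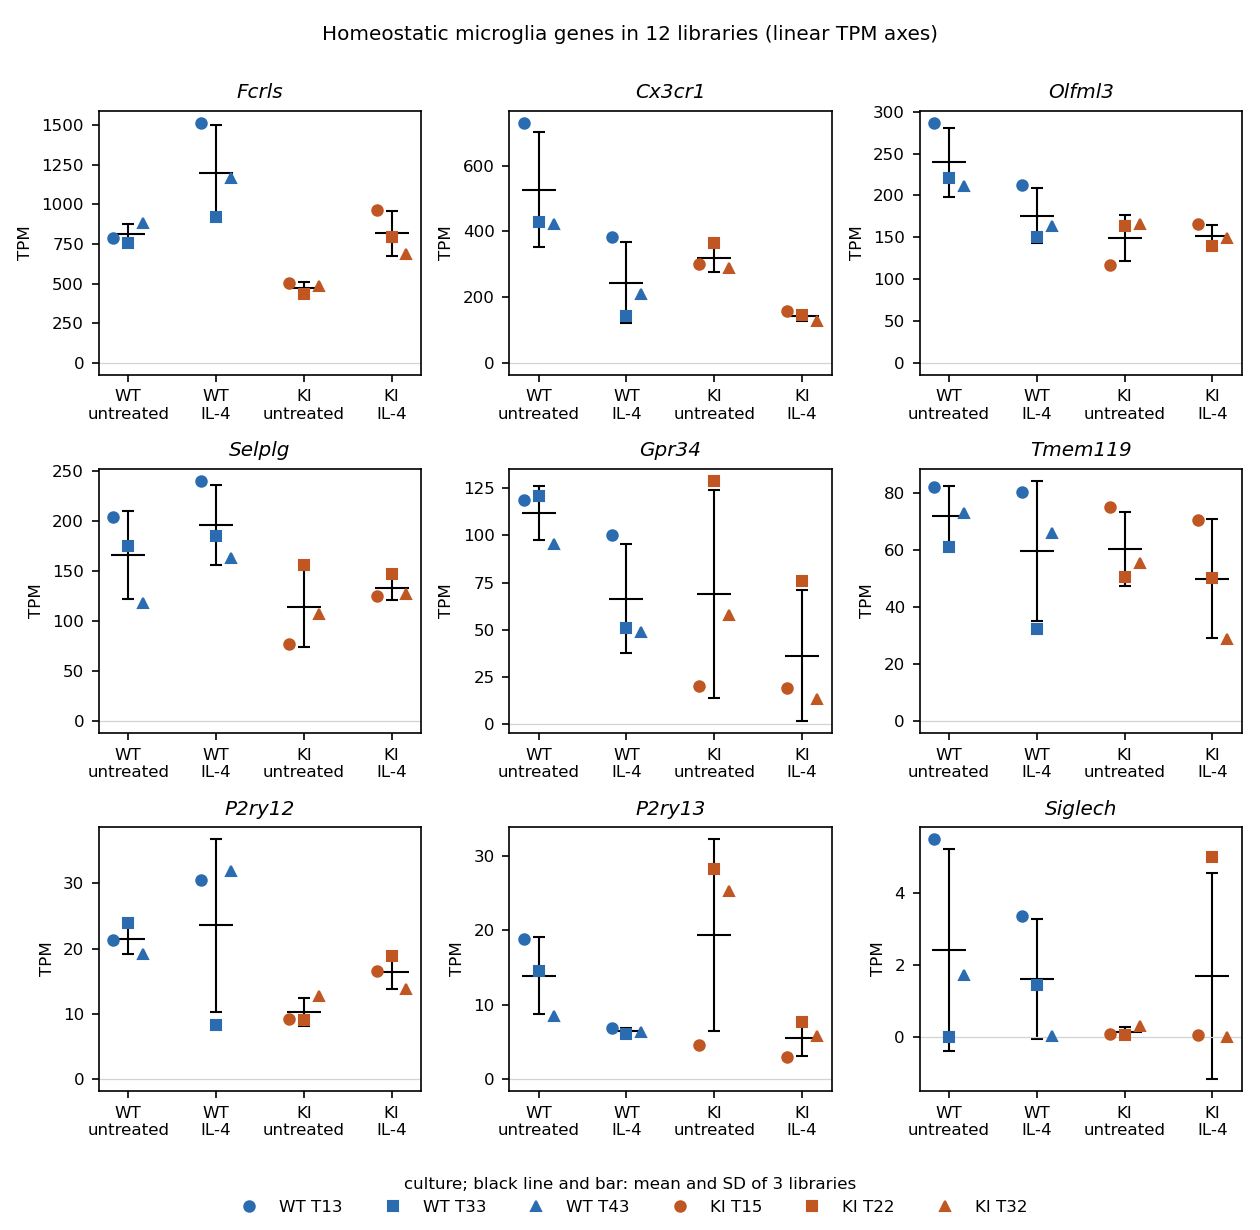
Level of each of the 9 members in TPM (linear axis) in the 12 libraries, by group. Each point is 1 library, its shape gives the culture, and the black line and bar give the mean and SD of 3 libraries. *Fcrls*, *Cx3cr1*, *Olfml3* and *P2ry12* were lower in every untreated KI library than in every untreated WT library, and *Cx3cr1* was lower after IL-4 in every culture.

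The first comparison asked which members differed between *Trem2* R47H KI and WT microglia. All 8 tested members had a negative average difference, with a median of −0.60 on the log2(TPM + 1) scale, where the median of all 11204 tested genes was 0.13. The members' median was −0.37 without WT culture T13. One gene passed the test: *Fcrls* was lower in KI. Thus 1 of 8 members was called lower, beside 0.357% of all tested genes, and 0 of 8 was called higher, beside 1.29% of all tested genes. Without IL-4, the KI libraries were all below the WT libraries for 4 of the 8 (*P2ry12*, *Cx3cr1*, *Olfml3* and *Fcrls*), where 4.55% of all tested genes did this. With IL-4, this held for 1 of the 8 (*Selplg*), where 5.79% of all tested genes did.

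*Fcrls* encodes an Fc receptor-like scavenger receptor found in mouse microglia. Untreated WT libraries were at 791, 756 and 886 TPM and untreated KI libraries at 507, 435 and 482 TPM. The KI values lay close together and below all WT values, a mean 1.71 times higher in WT. With IL-4 the level was 1517, 923 and 1165 TPM in WT and 966, 796 and 688 TPM in KI, where the highest KI library was above the lowest WT library. KI minus WT averaged −0.66 (95% interval −0.94 to −0.37, limma F-test adjusted p = 0.0456). With the culture as a replicate block, limma gave an adjusted p of 0.0778 and the call was lost. It was also lost without any 1 of the 6 cultures, with adjusted p-values from limma of 0.0601 to 0.304, while the difference itself was −0.77 to −0.57 in these fits. Relative to the 20 pan-microglial genes the difference was −0.04 (interval −0.45 to 0.36, limma adjusted p = 0.967).

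*Cx3cr1* encodes the receptor for fractalkine, a ligand displayed by neurons. Without IL-4, WT libraries had 731, 428 and 423 TPM and KI libraries 300, 364 and 289 TPM. WT culture T13 was far above the others, and the remaining WT libraries still exceeded all KI libraries. With IL-4 the values were 382, 141 and 209 TPM in WT and 157, 146 and 126 TPM in KI, and the groups overlapped. The average difference of −0.67 (interval −1.13 to −0.21) had a limma adjusted p of 0.224, so it did not pass the test. Without culture T13 it was −0.35. Relative to the pan-microglial genes it was −0.06 (interval −0.53 to 0.42).

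*Olfml3* encodes a secreted olfactomedin-like protein that microglia release in the brain. Untreated WT libraries were at 287, 221 and 211 TPM, and untreated KI libraries at 117, 163 and 166 TPM, with no overlap. After IL-4 the values were 213, 150 and 164 TPM in WT and 166, 139 and 149 TPM in KI, and they overlapped. KI minus WT averaged −0.45 (interval −0.74 to −0.15, limma adjusted p = 0.143), and relative to the pan-microglial genes it was 0.17 (interval −0.16 to 0.49).

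The nucleotide receptors form a pair of related genes. P2RY12 senses ADP and steers microglial processes towards injury, and P2RY13, also an ADP receptor, has been tied to process ramification. Without IL-4, *P2ry12* had 21.4, 24 and 19.2 TPM in WT and 9.15, 9.04 and 12.7 TPM in KI, a mean 2.09 times higher in WT and without overlap. With IL-4 it was at 30.5, 8.29 and 31.9 TPM in WT and at 16.6, 18.9 and 13.8 TPM in KI, where WT culture T33 lay below every KI library. The average difference of −0.65 (interval −1.30 to −0.01) had a limma adjusted p of 0.38, and relative to the pan-microglial genes it was −0.04.

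*P2ry13* did not follow its neighbour. Its untreated WT libraries had 18.8, 14.5 and 8.45 TPM, and untreated KI culture T15 had 4.58 TPM, but 28.2 and 25.3 TPM were found in T22 and T32, above all WT libraries. With IL-4 it was at 6.9, 6.05 and 6.34 TPM in WT and at 2.99, 7.71 and 5.78 TPM in KI. KI minus WT averaged −0.04 (interval −0.91 to 0.84, limma adjusted p = 0.957), an interval wide enough to hold a change of nearly 1 log2 unit in either direction, and relative to the pan-microglial genes it was 0.58 (interval −0.18 to 1.33). Its sign depended on the cultures, with 0.50 without T15 and −0.37 without T22. The correlation of *P2ry12* with *P2ry13* over the 12 libraries was −0.09, given as a description, since the libraries share cultures and the TPM total.

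GPR34 is a receptor for lysophosphatidylserine, and among the 8 tested members the genotype difference of *Gpr34* had the largest standard error on the log2(TPM + 1) scale (0.44). The untreated values were 119, 121 and 95.5 TPM in WT and 20.1, 129 and 57.7 TPM in KI. With IL-4 it was at 100, 50.9 and 48.7 TPM in WT and at 19.2, 76.1 and 13.4 TPM in KI. KI culture T22 was at or above WT levels in untreated cells, and T15 was low in both of its libraries. The average difference was the largest in size among the members, −1.11 (interval −2.06 to −0.17), with a limma adjusted p of 0.365. Without culture T22 it was −1.79 and passed the test (limma adjusted p = 0.0358), and without T15 it was −0.65. Relative to the pan-microglial genes it was −0.50 (interval −1.33 to 0.33).

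*Selplg* encodes PSGL-1, the ligand of P-selectin, which binds cells to vessel walls. The untreated values were 204, 175 and 118 TPM in WT and 77.3, 156 and 107 TPM in KI, which overlapped. With IL-4 it was at 240, 185 and 163 TPM in WT and at 125, 147 and 127 TPM in KI, which did not. The average difference was −0.55 (interval −0.94 to −0.16, limma adjusted p = 0.248), and relative to the pan-microglial genes it was 0.06.

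*Tmem119* encodes a membrane protein used to tell microglia from other brain macrophages. Untreated WT libraries were at 82, 60.9 and 72.9 TPM and untreated KI libraries at 75.1, 50.5 and 55.4 TPM. With IL-4 it was at 80.3, 32.3 and 66 TPM in WT and at 70.5, 50.1 and 28.9 TPM in KI. The genotypes overlapped under both conditions, with an average difference of −0.25 (interval −0.78 to 0.28, limma adjusted p = 0.852) and a value of 0.36 relative to the pan-microglial genes. Leaving out 1 culture moved it to between −0.50 (without T33) and −0.06 (without T32).

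*Siglech* encodes a sialic acid-binding receptor of microglia and plasmacytoid dendritic cells. The values in untreated WT were 5.51, 2.1e-05 and 1.71 TPM, and those in untreated KI were 0.0599, 0.0345 and 0.286 TPM. With IL-4 they were 3.36, 1.45 and 0.0197 TPM in WT and 0.0531, 5 and 3.0e-06 TPM in KI. Levels of this kind were scattered over 3 WT cultures and 1 KI culture with no common order. In the fit without the limit on expression, the genotype difference was −0.74 (interval −2.18 to 0.70, limma adjusted p = 0.772) and the IL-4 difference was 0.24 (interval −1.19 to 1.68).

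Measured against other microglial genes, the members' genotype differences were spread on both sides of 0. Relative to the 20 pan-microglial genes, 4 of the 8 members had a negative genotype difference, the median was 0.01 and the range was −0.50 to 0.58, and 0 of 8 passed the test. This scaling moves the median of all tested genes to 0.74. Quantile normalization and median-ratio scaling left all 8 members negative, with medians of −0.64 and −0.72, where the medians of all tested genes were −0.06 and 0.02.

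**Figure D2:**
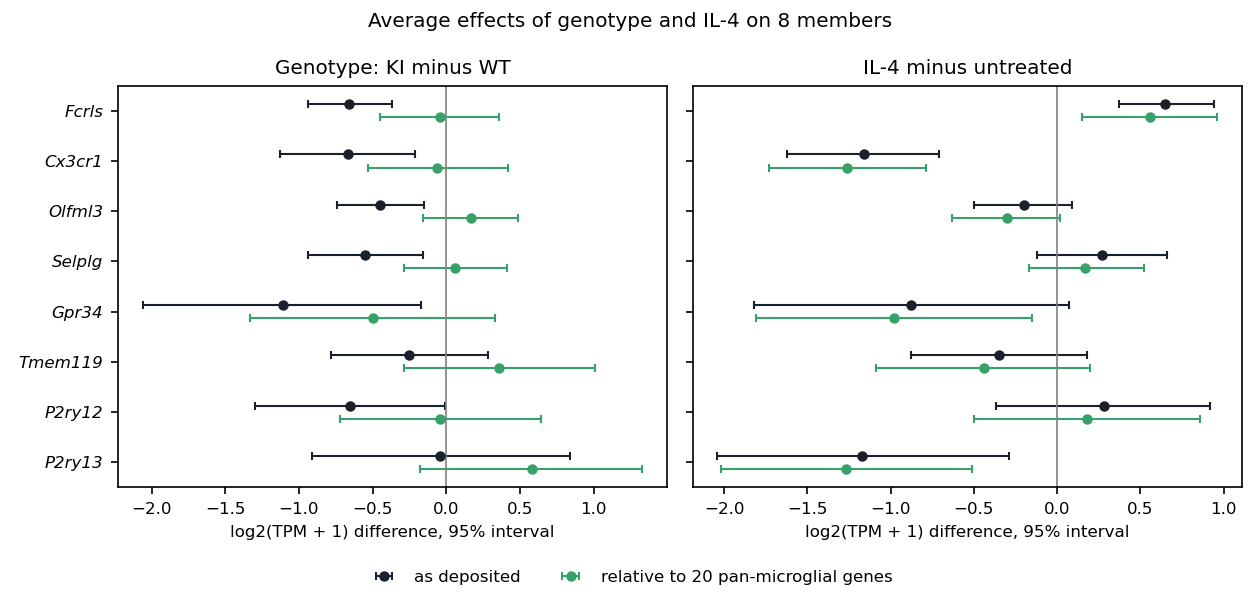
Average difference of each tested member on the log2(TPM + 1) scale, for genotype (left) and IL-4 (right), with 95% intervals from limma. Black points use the values as deposited and green points are relative to the mean of 20 pan-microglial genes. The genotype differences center on −0.60 as deposited and on 0.01 relative to those genes, while the IL-4 difference of *Cx3cr1* is −1.16 and −1.26.

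The second comparison asked how the members responded to IL-4. The treatment itself was visible in 7 of 8 tested genes of a list of known IL-4 targets, which rose. Members went both ways. *Cx3cr1* fell and passed the test, while *Fcrls* was higher in every culture. Thus 1 of 8 members was called lower, beside 0.143% of all tested genes, and 0 of 8 was called higher, beside 0.75%. Within cultures, 4 of the 8 (*P2ry13*, *Tmem119*, *Cx3cr1* and *Gpr34*) were lower with IL-4 in 6 of 6, where 2.51% of all tested genes were, and 1 (*Fcrls*) was higher in 6 of 6, where 5.73% were. The median difference of the members was −0.28 and that of all tested genes was 0.04. The members' median was −0.18 without T32, −0.19 without T33, −0.40 in WT libraries alone and −0.15 in KI libraries alone.

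*Cx3cr1* was lower with IL-4 in each culture. Its change per culture was −0.93, −1.59 and −1.01 in WT cultures T13, T33 and T43 and −0.93, −1.32 and −1.20 in KI cultures T15, T22 and T32. The mean TPM of untreated cells was 2.16 times that of IL-4-treated cells in WT and 2.23 times in KI. The average difference was −1.16 (SE 0.21, interval −1.62 to −0.71, limma F-test adjusted p = 0.042), and with the culture as a replicate block the limma adjusted p was 0.000195. Without the block, the adjusted p from limma lay between 0.0611 and 0.225 when T15, T22, T32, T33 or T43 was left out and was 0.00447 without T13, while the difference itself was −1.22 to −1.06 in these 6 fits. The fall was as large relative to the pan-microglial genes (−1.26, limma adjusted p = 0.0349), whose own mean moved by 0.10 with IL-4.

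*Fcrls* went the opposite way. Its change per culture was 0.94, 0.29 and 0.39 in WT and 0.93, 0.87 and 0.51 in KI, all above 0. The average difference was 0.65 (SE 0.13, interval 0.37 to 0.94) with a limma F-test adjusted p of 0.0682, which missed the threshold. With the culture as a replicate block it passed, with a limma adjusted p of 0.00744. Relative to the pan-microglial genes the difference was 0.56 (interval 0.15 to 0.96, limma adjusted p = 0.791).

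*P2ry13* was lower in each culture by amounts from −0.37 (WT T43) to −1.95 (KI T32), with an average of −1.17 (interval −2.04 to −0.29, limma adjusted p = 0.631). *Gpr34* was lower by amounts from −0.07 (KI T15) to −2.02 (KI T32), with an average of −0.88 (interval −1.82 to 0.07, limma adjusted p = 0.907). For both genes the direction was shared by 6 of 6 cultures, although neither passed the test. *Tmem119* was lower by −0.89 in WT T33 and −0.92 in KI T32 but by −0.14 or less in size in the other 4 cultures, with an average of −0.35 (interval −0.88 to 0.18, limma adjusted p = 0.979), which was −0.20 without T32 and −0.21 without T33.

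The other 3 members had averages nearer to 0. *P2ry12* was higher in 5 of 6 cultures, by 0.11 to 0.99, and lower by −1.43 in WT T33, with an average of 0.28 (interval −0.37 to 0.92, limma adjusted p = 0.964). Leaving out 1 culture moved this average to between 0.08 (without T43) and 0.61 (without T33). The change of *P2ry12* was opposite in sign to *P2ry13* in 5 of 6 cultures, although neither passed. *Selplg* was higher in 5 of 6 cultures (average 0.27, interval −0.12 to 0.66, limma adjusted p = 0.964), and its average was 0.17 without T15. *Olfml3* was lower in 5 of 6 and higher by 0.50 in KI T15 (average −0.20, interval −0.50 to 0.09, limma adjusted p = 0.819), and its average was −0.32 without T15.

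**Figure D3:**
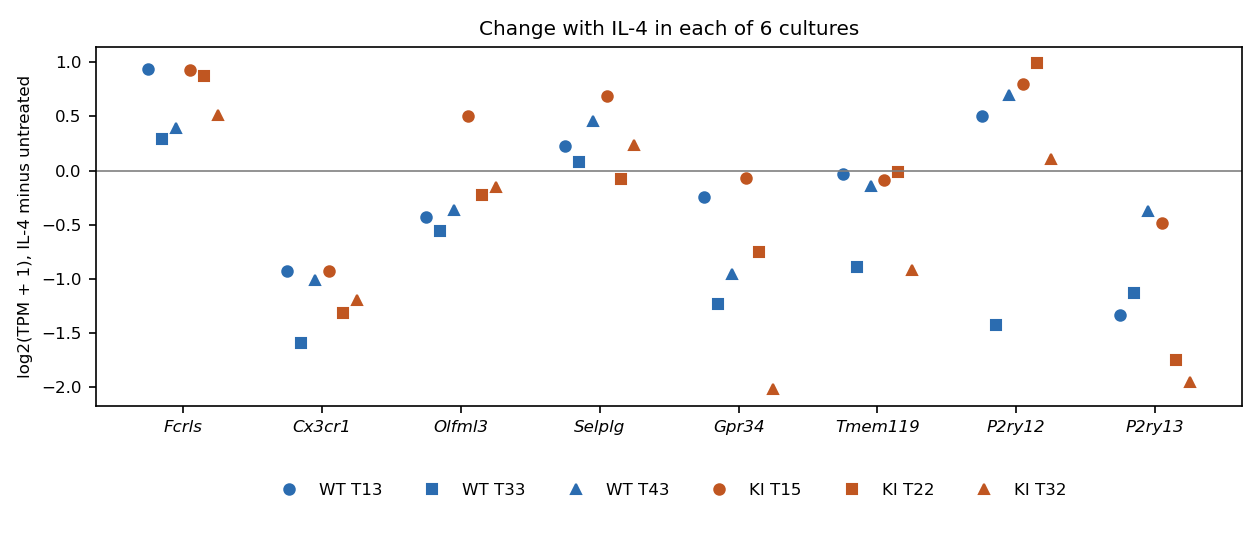
Change with IL-4 of each of the 8 tested members in each of 6 cultures, as the difference of log2(TPM + 1) between the IL-4-treated and the untreated library of a culture. Colors give the genotype and shapes the culture. *Cx3cr1* lies between −1.59 and −0.93 in all 6 cultures and *Fcrls* between 0.29 and 0.94, while *P2ry12* and *Olfml3* fall on both sides of 0.

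The third comparison asked whether the response to IL-4 differed between genotypes. It did not pass the test for any member: 0 of 8, beside 0% of all tested genes. By limma's interaction test 0 of 11204 genes passed, and 4 genes passed when no limit on expression was set. In that test 357 of the 11204 had an unadjusted p under 0.05, less than the share of 0.05 awaited if no gene differed. The response of *Cx3cr1* in KI minus that in WT was 0.03 (SE 0.42, interval −0.88 to 0.94), which leaves room for a difference of nearly 1 log2 unit in either direction. That of *P2ry12* was 0.71 (SE 0.60, interval −0.58 to 2.00) and that of *Olfml3* was 0.49 (SE 0.27, interval −0.10 to 1.07). The other 5 lay between −0.45 (*P2ry13*) and 0.23 (*Fcrls*). These values rested on single cultures. Leaving out 1 culture moved *P2ry12* to between 0.03 (without T33) and 1.10 (without T43) and *Olfml3* to as low as 0.26 (without T15). It moved *P2ry13* to between −0.91 (without T15) and −0.16 (without T43) and *Fcrls* to between 0.10 (without T33) and 0.43 (without T13). *Cx3cr1*, *Gpr34*, *Selplg* and *Tmem119* fell on both sides of 0 when cultures were left out.

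The members varied together over the 12 libraries without moving as 1 unit. Of 28 pairs, 25 had a correlation above 0, with a median of 0.44, as a description over 12 libraries that share cultures and a fixed TPM total. The matching share for pairs of other genes was not computed. All 20 pan-microglial genes also had a negative genotype difference, so the count is not shown to be particular to the members. *Olfml3* had the highest correlation with the mean z-score of the 8 members (0.90, a score it is itself part of), and *P2ry13* (0.43) and *Fcrls* (0.44) had the lowest. Of all other tested genes, *Mef2c* was most like that score, with r = 0.95, followed by *Cyfip1* (0.91) and *Ctla2a*, *Ctse* and *Oas1a* (0.90 each). The lowest values were those of *Atp6v0d1* (−0.94), *Esd* (−0.91) and *Arhgap1* (−0.90). *Mef2c* encodes a transcription factor of microglial identity. Its untreated values were 162, 152 and 99 TPM in WT and 56.5, 92.4 and 67.5 TPM in KI, without overlap, and those with IL-4 were 143, 73 and 84.9 TPM against 67.2, 67.6 and 36.5 TPM, again without overlap. Its genotype difference of −0.86 (interval −1.33 to −0.39) had a limma adjusted p of 0.119. *Mef2c* was picked by its correlation with a score that itself differs by genotype, so its group values are a description only. A regulatory role was not tested.

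**Figure D4:**
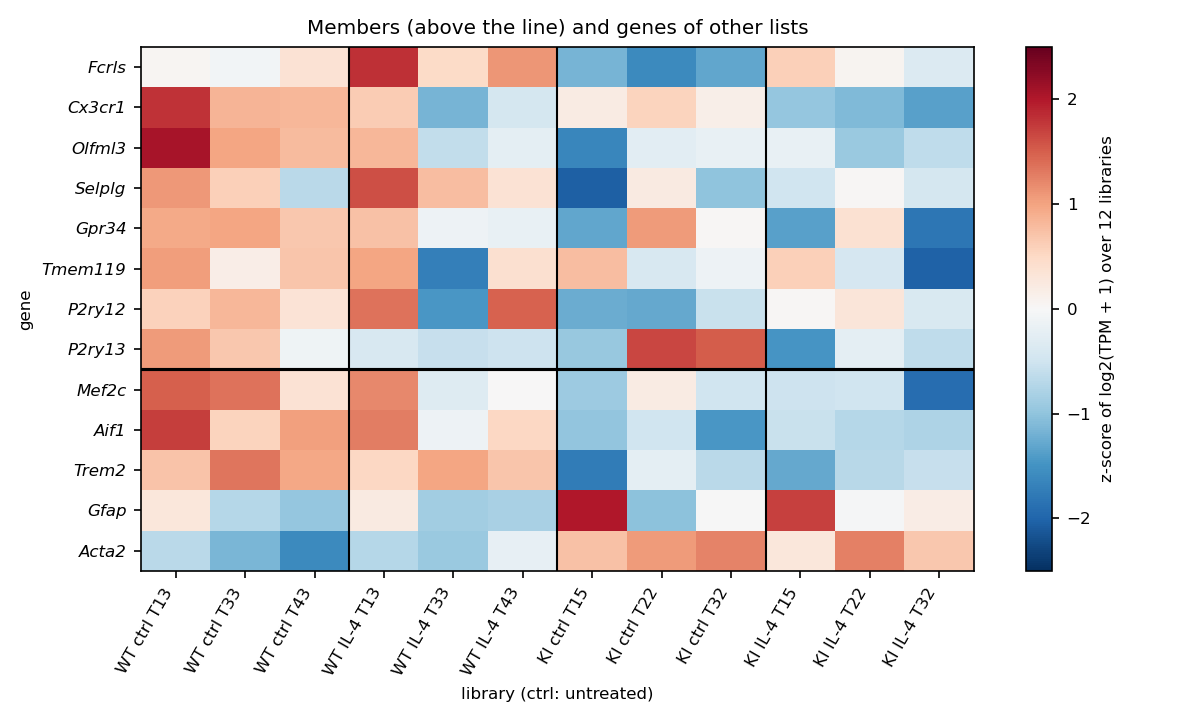
Z-score of log2(TPM + 1) over the 12 libraries for the 8 tested members (above the black line) and for *Mef2c*, *Aif1*, *Trem2*, *Gfap* and *Acta2* (below it), with ctrl for untreated. Red is above and blue below a gene's own mean. *Mef2c* was picked as the tested gene outside the members with the highest correlation with their mean (r = 0.95). *Gfap* is highest in both libraries of KI culture T15. *Acta2*, a smooth muscle actin, is higher in every KI than in every WT library.

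Related gene lists gave the members a context. Of 30 other homeostatic genes, 26 were tested, with a median genotype difference of −0.28. *Csf1r*, the receptor for the survival factors CSF1 and IL-34, was lower in KI (−0.83, limma adjusted p = 0.0408). With the culture as a replicate block this call was lost (limma adjusted p = 0.0648). *Sparc*, a matrix protein gene that astrocytes and vessel cells also express, was higher (2.12, limma adjusted p = 0.0101). The other 24 did not pass. With IL-4 the median of this list was 0.21, and *P2ry6*, a UDP receptor linked to phagocytosis and a relative of the P2Y members, rose by 1.27 (limma adjusted p = 0.0132) while the other 25 did not pass.

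Of 20 pan-microglial genes, 5 were lower in KI (*Coro1a*, *Aif1*, *C1qb*, *Csf1r* and *Itgam*) and 0 higher, with a median of −0.64, close to the −0.60 of the members. The calls of *Csf1r* and *Itgam* were lost with the culture as a replicate block. With IL-4, 2 fell (*Coro1a* and *Cd14*) and 2 rose (*Adgre1* and *C1qa*). Of 15 tested regulators of the microglial lineage, *Csf1r* alone passed for genotype (median −0.29) and 0 passed for IL-4 (by limma, as for all lists here). *Spi1*, which encodes PU.1, had a genotype difference of −0.52 (limma adjusted p = 0.202).

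Of 12 tested partners of the members' receptors, 0 passed for genotype, with a median of −0.05, and *P2ry6* alone passed for IL-4. *Cx3cl1*, the ligand of CX3CR1, was at 0 to 17.6 TPM in WT and 11.4 to 32.9 TPM in KI libraries (difference 2.09, limma adjusted p = 0.168). Of 24 disease-associated microglia genes, 3 were lower in KI (*Ch25h*, *Cd52* and *Ccl4*) and 1 higher (*Csf1*), with a median of −0.21. With IL-4, 5 rose, among them *Itgax*, *Clec7a* and *Timp2*, and 1 fell (*Ch25h*), with a median of 0.21.

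Among the lists for other cells, 4 of 7 tested mural and fibroblast genes were higher in KI (*Acta2*, *Myl9*, *Tagln* and *Cnn1*), with a median of 1.93. All 10 tested astrocyte genes had a positive genotype difference, with a median of 1.82, and 0 passed. Of 7 tested oligodendrocyte lineage genes, *Olig1* was higher. Of 4 tested macrophage genes, *Clec12a* was lower, and *Ms4a7* rose with IL-4. Of 2 tested endothelial genes, *Flt1* rose with IL-4, and of 2 tested neuronal genes 0 passed for genotype or IL-4. With the culture as a replicate block, 11 of the called non-member genes for genotype, *Trem2* included, remained past the threshold, and 6 did not (*Ccl4*, *Cnn1*, *Csf1*, *Csf1r*, *Itgam* and *Olig1*, with limma adjusted p-values of 0.0629 to 0.0766). For IL-4, the block kept all 20 called genes of these lists and added 15.

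Leaving out KI culture T15, which had the highest summed astrocyte level, 5 of 8 members were lower in every untreated KI than in every untreated WT library, where 7.81% of all tested genes were. Without this culture, 5 of 8 were lower with IL-4 in every remaining culture, where 4.45% of all tested genes were. Both shares over all genes are higher than with all cultures, so the counts with and without T15 cannot be compared directly.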

How the data were processed

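RNA-seq was performed on 12 libraries of primary mouse microglia. Per the labels, Trim Galore and Salmon were used with GRCm38, and by the methods the authors summed transcripts to genes with tximport. The deposited unit is TPM per gene and library. Versions of Trim Galore, Salmon and tximport are not given in the sources used here. A nominal read number is stated for the sequencing run, but how many reads each library contributed, and with it the counting error, cannot be had from TPM.

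Symbols and positions came from GENCODE on GRCm38 (48350 of 48623 genes matched). Genes with a mean log2(TPM + 1) above 1.5 were tested in limma 3.58.1 (R 4.3.3) with a variance trend and 4 group means. Genotype and IL-4 effects are F-tests over both levels of the other factor, with the direction taken from the average difference, and the interaction is a test of 1 coefficient. Fold changes on this scale understate changes of low genes. Benjamini-Hochberg adjustment was made over 11204 genes at a threshold of 0.05. The limma steps were tested on simulated data, and figures were drawn in Python 3.11.15 with matplotlib 3.10.9.

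An untreated and an IL-4-treated library with the same T number in their names were taken as 1 culture, which the labels do not state outright, and every value per culture rests on this. Their deviations from the group means correlated by 0.079 to 0.378, and 5 of 6 cultures correlated best with their own partner. Fits with the culture as a replicate block (random for genotype, fixed for IL-4) are given, as values or counts, where a call of a member or a listed gene changed. Without the block the genotype test treats both libraries of a culture as independent.

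The members and gene lists were chosen with earlier results of these data known. Named genes are the members, *Trem2*, genes overlapping a member, up to 3 called genes per list and direction, and the 5 most and 3 least correlated genes. *Spi1*, *Cx3cl1*, *Gfap*, the macrophage markers and the remaining called genes of the lists were named after their values were seen. Alternatives were another pseudocount, filter, scaling and variance model, the replicate block, single contrasts and leaving out each culture.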

Additional observations from a re-analysis of the deposited data

How the results depend on the processing

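The number of members past the threshold for genotype went from 1 to 0 with a pseudocount of 0.1, with no expression filter, relative to the pan-microglial genes, with no variance trend, with the replicate block, and in untreated or IL-4-treated libraries alone. It ranged from 0 to 1 when a culture was left out, the 1 being *Gpr34* without T22. For IL-4 it went from 1 to 0 with a pseudocount of 0.1, without the variance trend, with no expression filter, and in WT or KI libraries alone, to 2 (*Cx3cr1* and *Fcrls*) with the replicate block or the 1-coefficient test, and ranged from 0 to 1 when a culture was left out. The median genotype difference of −0.60 became 0.01 relative to the pan-microglial genes and ranged from −0.65 to −0.37 when a culture was left out, the latter without T13. The cause of these changes was not tested. Over all genes, the 40 lower and 145 higher genotype calls became 7 and 9 with no filter, 2 and 24 without the variance trend, 21 and 56 with the random replicate block, 16 and 3738 relative to the pan-microglial genes, 56 and 90 with quantile normalization, and 1 and 2 without WT culture T33. The 16 lower and 84 higher IL-4 calls became 39 and 201 with the fixed replicate block, 4 and 46 without the variance trend and 11 and 50 with no filter. The counts of members that did not overlap without IL-4 (4) or were lower with IL-4 in every culture (4) were 4 to 6 and 4 to 5 when a culture was left out, an alternative chosen after seeing the data. Over all tested genes the matching shares rose from 4.55% to between 6.64% and 9.06% and from 2.51% to between 3.42% and 4.59%. The IL-4 difference of *Cx3cr1* lay between −1.26 and −1.06 under every alternative run. The genotype difference of *Fcrls* was negative in every one, but it was −0.04 relative to the pan-microglial genes. There were 3 cultures per group, the reads counted per library are unknown, and *Siglech* did not pass the expression filter.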
